A study of Mus musculus with 6 samples.

Results

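Ubiquitin ligases that time the cell cycle were followed as 10 genes: Fzr1 and Cdc20, Anapc2 and Anapc10, Skp1a, Cul1, Skp2, Cks1b, Btrc and Fbxw7. They were taken by symbol, and all 10 had a row among the 22544 rows of the authors' deposited table. The first 4 belong to the anaphase-promoting complex (APC/C) and the other 6 to the SCF ligase. Sequenced RNA came from upper-layer cortical neurons of the Swiss Webster mouse strain, sorted by fluorescence for their label, green fluorescent protein (GFP). The groups were postnatal day 3 (P3) and postnatal day 5 (P5), with 3 biological replicates each, and the series asks how neurons come to stop dividing for good. How the GFP was introduced, and in which cells it could be made, is not given in the sources used here.

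The APC/C and SCF both attach ubiquitin to cell cycle proteins and so send them to the proteasome. The APC/C is a large fixed assembly that is switched on by an exchangeable activator, Cdc20 in mitosis and Cdh1, the product of Fzr1, from late mitosis through G1. In neurons that no longer divide, Cdh1 keeps the complex active, and it is known for holding back axon growth. In the SCF, the scaffold Cul1 joins a RING subunit to the adaptor Skp1, which carries an exchangeable F-box protein that picks the substrate. The F-box protein Skp2 works with the small protein Cks1 to recognise the CDK inhibitor p27, and Skp2 is itself a substrate of the APC/C with Cdh1.

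Promoters of 4 of the genes are shown because activators and Skp2 partners differ in elements known from cell cycle promoters. Each run is the 250 bases upstream of a RefSeq start site on build GRCm38.p6, from 5′ to 3′ on the strand of the gene. Capitals mark the CCAAT box, which binds NF-Y, and the hexamer TTTGAA, a form of the cell cycle genes homology region, both read on either strand.
Cdc20, chr4:118437344-118437593, minus strand: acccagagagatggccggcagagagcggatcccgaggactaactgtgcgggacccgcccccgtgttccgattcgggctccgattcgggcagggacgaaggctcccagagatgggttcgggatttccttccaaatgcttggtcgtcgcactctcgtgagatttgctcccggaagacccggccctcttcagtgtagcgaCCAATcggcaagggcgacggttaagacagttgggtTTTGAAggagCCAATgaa
Cks1b, chr3:89418292-89418541, minus strand: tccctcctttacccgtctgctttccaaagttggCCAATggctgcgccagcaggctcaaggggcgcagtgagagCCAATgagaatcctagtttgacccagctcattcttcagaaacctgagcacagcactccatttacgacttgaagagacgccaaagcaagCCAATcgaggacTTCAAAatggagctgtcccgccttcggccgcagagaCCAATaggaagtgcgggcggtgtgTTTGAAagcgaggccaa
Fzr1, chr10:81378371-81378620, minus strand: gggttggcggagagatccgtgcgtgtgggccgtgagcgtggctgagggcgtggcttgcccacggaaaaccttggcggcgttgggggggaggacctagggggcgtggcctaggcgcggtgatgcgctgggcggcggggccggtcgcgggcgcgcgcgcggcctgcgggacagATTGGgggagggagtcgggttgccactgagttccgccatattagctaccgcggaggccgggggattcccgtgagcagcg
Skp2, chr15:9140455-9140704, minus strand: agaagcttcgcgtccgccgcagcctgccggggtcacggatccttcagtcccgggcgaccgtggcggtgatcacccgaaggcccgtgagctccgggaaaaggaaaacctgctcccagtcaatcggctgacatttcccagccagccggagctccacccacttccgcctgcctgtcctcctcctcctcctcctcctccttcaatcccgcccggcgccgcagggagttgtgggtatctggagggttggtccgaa
The Cdc20 promoter held 2 CCAAT boxes, whose first bases lay 53 and 8 bases upstream of the start site, and 1 TTTGAA at 18 bases. The Cks1b promoter held 4 CCAAT boxes and 2 copies of TTTGAA, at 77 and 17 bases. The Fzr1 promoter held 1 CCAAT box, at 79 bases, and no TTTGAA. The Skp2 promoter shown held neither.

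A second listed start site of Skp2 (upstream bases chr15:9155426-9155675) had 1 CCAAT box at 183 bases and 2 copies of TTTGAA at 63 and 55. From the gene's far end to that site are 43444 bases, against 28473 to the start site shown and 28466 in the deposited mm9 locus of Skp2. Of 32851 listed promoters, 5.55% held both motifs, 33.8% a CCAAT box and 16.0% TTTGAA. Among the 11330 promoters of rows that Cuffdiff tested and that had expression at both ages, the shares were 3.67%, 35.2% and 9.99%. Anapc2, Anapc10, Skp1a, Cul1 and Fbxw7 had no listed promoter with both, and Btrc was not searched. Forms of the E2F site (TTTGGCGC, TTTCGCGC, TTTCCCGC, TTTGCCGC) were in none of the 15 promoters of the 9 genes searched. They were in 1.86% of all promoters and in 3.24% of those of tested rows with expression at both ages. These matches describe letters and do not show binding, and a link between motifs and the values below was not tested.

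None of the 10 genes differed between P3 and P5 by the authors' test. Cuffdiff at q = 0.05 called 0 of the 10, and 0% of the 12865 rows tested. The q of each of the 10 was 0.999988 in the authors' deposited table. The lowest p of the 10 was 0.109, for Skp2, so 0 of the 10 had an unadjusted p under 0.05, against 0.591% of tested rows with higher and 0.179% with lower expression at P5. What follows gives levels and their differences with errors, and no gene is said to have changed.

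Levels are FPKM, fragments scaled to transcript length and library total, as 1 value per age that the authors pooled from the replicates. The value of each replicate and the depth were therefore not open to view. Differences are log2 ratios of P5 over P3. Their standard error (SE) was derived from the test statistic of the authors' deposited table, and 95% intervals are 1.96 SE either side. In the pooled values 4 of the 10 genes were higher at P5 and 6 lower, against 55.6% higher and 44.4% lower among 12313 tested rows with expression at both ages. A difference of at least 2-fold was seen upward in 1 gene (Cdc20) and downward in 2 (Skp2 and Cks1b), against 23.9% and 10% of those rows. With a pseudocount of 1 FPKM the log2 ratio of Cdc20 was 0.59, under that size. The median log2 ratio was -0.40 for the 10 genes and 0.13 for those rows.

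**Figure D1:**
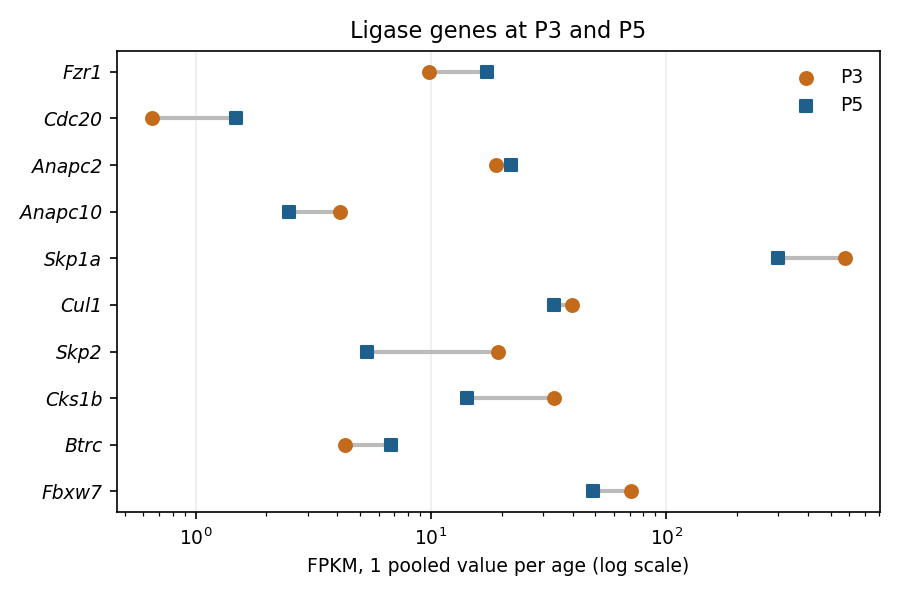
FPKM (log axis) of the 10 ligase genes at P3 (circles) and P5 (squares), with 1 pooled value per age and no error on the level. Skp1a lies above 290 FPKM at both ages and Cdc20 below 1.5, while Skp2 has the longest line, from 19.3 to 5.33.

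Among the activators, Fzr1 had the higher pooled FPKM at both ages. Fzr1 had 9.77 FPKM at P3 and 17.4 at P5, 1.78-fold higher at P5 (mm9 chromosome 10, 80829624 to 80841115). Its log2 ratio was 0.83 (SE 1.17), with an interval from -1.47 to 3.13 and p = 0.480 in the authors' deposited table. Cdc20 had 0.650 FPKM at P3 and 1.48 at P5 (mm9 chromosome 4, 118100698 to 118109948). It was thus near the lower end of expressed genes, above 20.9% of the rows with any signal at P3 and 30.1% at P5. Its log2 ratio of 1.19 had an SE of 4.90 (p = 0.808 in the authors' deposited table), the widest error of the 10, with an interval from -8.41 to 10.8.

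In the pooled values, Fzr1 exceeded Cdc20 by 15.0-fold at P3 and 11.7-fold at P5. These levels carry no error, and that of Cdc20 is low, so the size of the gap is uncertain. The log2 ratio of Fzr1 minus that of Cdc20 was -0.36, with an interval from -10.2 to 9.51 that holds large differences either way. The deposited locus of Cdc20 is the same as that of Elovl1, a fatty acid elongase gene, which had 13.7 and 23.0 FPKM. Without strand information, reads where these genes overlap cannot be told apart. Among tested genes of the fixed lists, those nearest to Fzr1 in log2 FPKM over the pair of ages were Fbxo44 (8.36 and 17.2), Myc (11.2 and 14.7) and Gria1 (10.2 and 14.0). Nearest to Cdc20 were 6720463M24Rik, the older name of the Aurora kinase cofactor gene Bora (0.725 and 1.47), Foxm1 (0.565 and 1.51) and Cand2 (0.682 and 1.95). Such nearness rests on 2 pooled values per gene.

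RNA of core subunits of the APC/C had signal at both ages. Anapc2, the cullin-like subunit that holds the RING subunit Anapc11, had 18.9 FPKM at P3 and 22.0 at P5 (mm9 chromosome 2, 25127986 to 25141436). The ratio on the log2 scale was 0.22 (SE 0.91), and the interval ran from -1.57 to 2.01. Anapc10, which helps to bind substrates with a destruction box, had 4.13 and 2.51 FPKM (mm9 chromosome 8, 82235719 to 82301220). For Anapc10 the log2 ratio was -0.72 (SE 1.41, p = 0.609 in the authors' deposited table). Anapc2 exceeded Anapc10 by 4.58-fold at P3 and 8.78-fold at P5.

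All 14 listed core subunits were tested, 5 with higher and 9 with lower FPKM at P5. Their median log2 ratio was -0.01, and 0 were called. Among tested rows with expression at both ages the median was 0.13, and 55.6% were higher at P5. Most lay together in level. Anapc4 had 22.6 and 22.9 FPKM, Cdc16 25.6 and 25.6, Cdc23 22.8 and 25.1, Cdc27 13.6 and 13.6, Anapc1 9.50 and 9.33, and Anapc16 29.1 and 27.8. The RING subunit Anapc11 had 26.0 and 25.9. Apart from these stood the small subunit Anapc13 at 94.5 and 65.1 FPKM and, at the low end, Cdc26 at 1.37 and 2.18 Anapc15 (as 3200002M19Rik) at 4.08 and 2.001, and Anapc10 beside them. Anapc5 (15.4 and 25.6) had the highest ratio of the subunits at 0.73, and Anapc7 had 10.7 and 7.05 FPKM. Several subunits thus had nearly the same pooled value at both ages, but the error on each ratio was wide, with a median SE of 1.10.

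**Figure D2:**
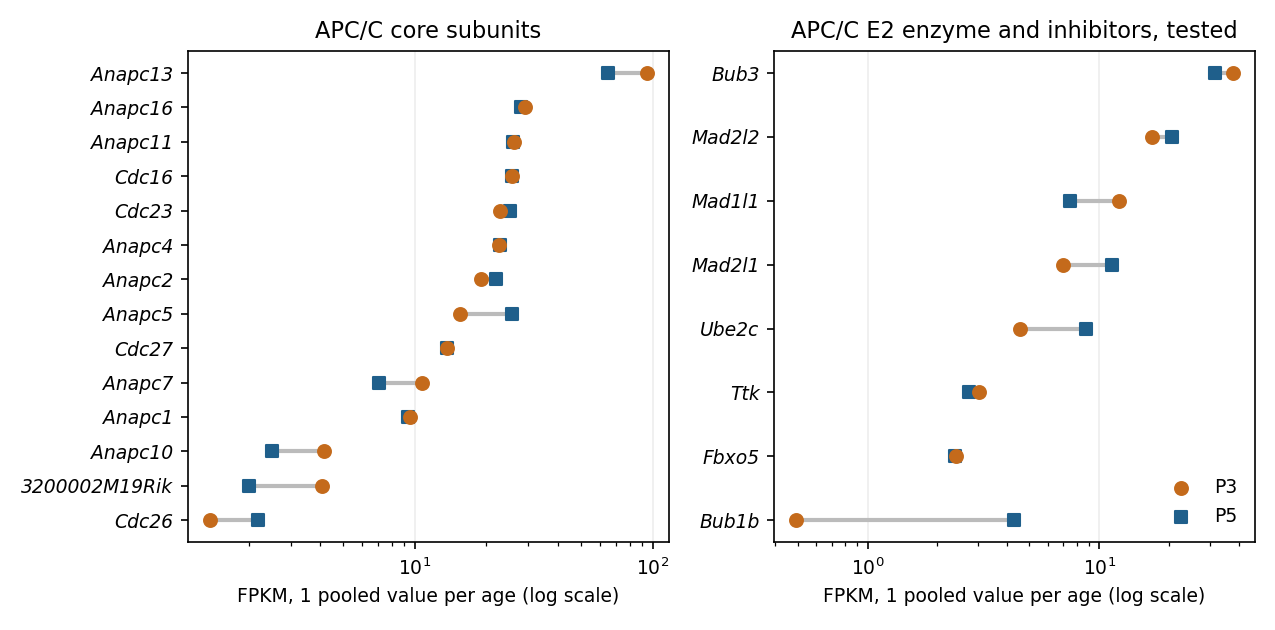
FPKM (log axis) at P3 (circles) and P5 (squares) of the 14 APC/C core subunits on the left and of the 8 tested genes for its E2 enzyme and inhibitors on the right. Subunits such as Cdc16, Cdc27 and Anapc4 have overlapping points, and Bub1b has the longest line, from 0.491 to 4.30.

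The 11 listed enzymes and inhibitors that act on the APC/C had median levels of 3.03 and 4.30 FPKM at the successive ages, and the subunits 17.2 and 22.4, although Bub3 stood above all subunits but Anapc13. Ube2c, the E2 enzyme that starts the ubiquitin chain, had 4.57 and 8.80 FPKM. Ube2s, which extends the chain, was not tested and was listed at 0 at P3 and 0.020 at P5. The inhibitor Fbxo5 (Emi1) had 2.40 and 2.38. Of the spindle checkpoint, which restrains Cdc20, Bub3 had 37.8 and 31.7 FPKM, Mad2l1 6.99 and 11.4, Mad1l1 12.2 and 7.49, and the kinase Ttk 3.03 and 2.74. Bub1b had 0.491 and 4.30 (log2 ratio 3.13, p = 0.118 in the authors' deposited table). Mad2l2, which can bind Cdh1, had 16.9 and 20.6. Fbxo43 and Usp44 were not tested, with at most 0.020 FPKM at either age. Of the 8 tested, 4 were higher and 4 lower at P5, with a median of 0.14, and 0 were called.

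The SCF adaptor was the most abundant of the 10 genes. Skp1a, the adaptor, had 576 FPKM at P3 and 299 at P5, above 99.6% and 99.3% of rows with any signal (mm9 chromosome 11, 52045497 to 52060360). Its log2 ratio was -0.95 (SE 0.99), with an interval from -2.88 to 0.99 and p = 0.337 in the authors' deposited table. Cul1 had 39.8 and 33.3 FPKM (mm9 chromosome 6, 47404323 to 47476138), and its log2 ratio of -0.26 had the lowest SE of the 10, 0.86. Skp1a exceeded Cul1 by 14.5-fold at P3 and 8.97-fold at P5. The RING subunit Rbx1, shared by most cullin ligases, had 138 and 114 FPKM.

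Skp2 differed the most of the 10 between the ages. It had 19.3 FPKM at P3 and 5.33 at P5, 3.62-fold lower at P5 (mm9 chromosome 15, 9041742 to 9070207). Its log2 ratio was -1.86 (SE 1.16), with an interval from -4.13 to 0.42 and p = 0.109 in the authors' deposited table. Of tested rows, 2.85% had a lower ratio. Cks1b, its partner for p27, had 33.5 and 14.3 FPKM, 2.35-fold lower at P5 (mm9 chromosome 3, 89219394 to 89222213). The log2 ratio of Cks1b was -1.23 (SE 1.30, p = 0.344 in the authors' deposited table), and 6.83% of tested rows had a lower one. Both intervals hold 0. Cks2, the close relative of Cks1b, was not tested and was listed at 0 at P3 and 0.064 at P5. In the lists, the genes nearest to Skp2 in level at both ages were Aurka (19.1 and 6.95 FPKM), Fbxo18 (11.8 and 6.73) and Mad1l1.

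**Figure D3:**
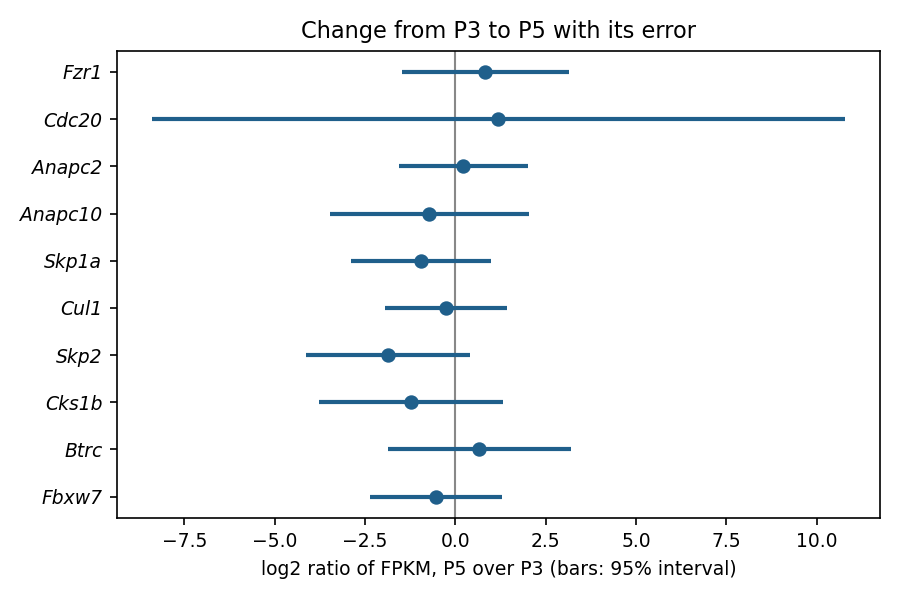
Log2 ratio of FPKM, P5 over P3, for the 10 ligase genes, with bars for the 95% interval from the SE implied by the authors' test statistic. Every interval holds 0, and that of Cdc20 is the widest, from -8.41 to 10.8.

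The other F-box genes, Fbxw7 and Btrc, differed from each other in level. Fbxw7, which recognises cyclin E, Myc, Jun and Notch, had 70.8 FPKM at P3 and 48.9 at P5 (mm9 chromosome 3, 84619499 to 84783120). The log2 ratio of Fbxw7 was -0.53 (SE 0.93, p = 0.567 in the authors' deposited table). Its locus is shared with the row Dear1, which was listed at 0 at both ages. Btrc (beta-TrCP), which recognises beta-catenin and the NF-kappaB inhibitor, had 4.30 and 6.79 FPKM (mm9 chromosome 19, 45438224 to 45607833). Its log2 ratio was 0.66 (SE 1.30), and the interval ran from -1.88 to 3.20. Its paralog Fbxw11, with an overlapping set of substrates, was 3.38-fold more abundant than Btrc at P3 and 2.69-fold at P5, at 14.5 and 18.3 FPKM.

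The ratios of the F-box genes were compared in 3 pairs. Skp2 minus Btrc was -2.52 on the log2 scale, with an interval from -5.92 to 0.89. Skp2 minus Fbxw7 was -1.32 (-4.24 to 1.60), and Btrc minus Fbxw7 was 1.19 (-1.94 to 4.33). All of these intervals hold 0, and they are too wide to show that the genes acted alike. In level, Skp2 was 4.49 times Btrc at P3 and 0.785 times Btrc at P5, so their order was reversed in the pooled values. Fbxw7 exceeded Skp2 by 3.67-fold at P3 and 9.16-fold at P5.

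Against 79 F-box genes of the table, Fbxw7 ranked 2 by FPKM at both ages, behind Fbxo46. Skp2 ranked 6 at P3 and 27 at P5, and Btrc 26 and 22. Fbxw7 made up 11.6% of the summed FPKM of these genes at P3 and 9.15% at P5, and Skp2 3.17% and 0.998%. Of 51 tested F-box genes with signal at both ages, 26 were higher and 25 lower at P5, with a median of 0.06 and 0 called. Skp2 had the lowest ratio of the 51. The most abundant of the others were Fbxo46 (145 and 70.8 FPKM), Fbxo3 (47.1 and 33.8) and Fbxo11 (43.4 and 20.5). Among F-box genes with at least 5 FPKM at either age, Fbxw9 had the lowest p after Skp2. Its levels were 4.90 and 16.8 FPKM (p = 0.192 in the authors' deposited table). Of the 79, 14 were listed at 0 at both ages.

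**Figure D4:**
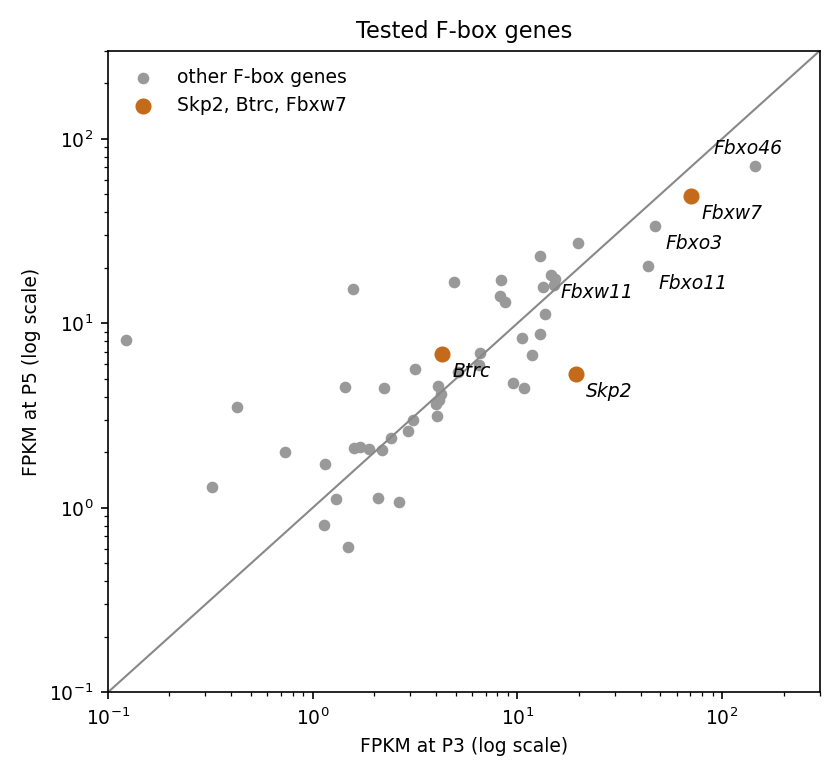
FPKM at P3 (horizontal) and P5 (vertical), both log axes, of the 51 tested F-box genes with signal at both ages, with the line of equal level. Skp2 lies below the line at 19.3 and 5.33, Fbxw7 near its upper end, and Btrc just above it.

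By level, the 10 genes ran at P3 from Skp1a through Fbxw7, Cul1, Cks1b, Skp2, Anapc2, Fzr1, Btrc and Anapc10 to Cdc20. At P5 the order was Skp1a, Fbxw7, Cul1, Anapc2, Fzr1, Cks1b, Btrc, Skp2, Anapc10 and Cdc20. The first 3 and the last 2 places were thus the same at both ages, and Fzr1 and Anapc2 stood above Skp2 and Cks1b at P5. The deposited levels carry no error, so neighbours such as Skp2 and Anapc2 at P3 (19.3 and 18.9 FPKM) or Anapc10 and Btrc (4.13 and 4.30) cannot be separated.

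Other cullin genes and their regulators were examined from lists. Of 15 tested scaffolds and adaptors, 5 were higher and 10 lower at P5 (median -0.09). Cul5 had 47.8 and 44.9 FPKM. Skp1a and Cks1b had the lowest p-values of that list, which includes these members. Attachment of Nedd8 switches cullins on and the COP9 signalosome removes it. Nedd8 had 508 and 355 FPKM, and the COP9 subunits Cops4, Cops5 and Cops6 had 144 and 120, 121 and 82.9, and 102 and 137. In that list 10 of 18 tested genes were higher and 8 lower (median 0.07), and 0 were called in either.

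Substrates of these ligases are controlled as proteins, so their RNA is given only as context. Of 18 tested cell cycle substrates of the APC/C, 9 were higher and 9 lower at P5 (median -0.01). Securin (Pttg1) had 297 and 171 FPKM, cyclin A2 (Ccna2) 27.6 and 13.8, Rrm2 18.1 and 17.8 and Birc5 15.6 and 19.6. The Aurora kinases went apart, Aurka at 19.1 and 6.95 and Aurkb at 1.59 and 10.2 (p = 0.251 and 0.136 in the authors' deposited table). Substrates described in neurons were 4 higher and 7 lower of 11. Among them Id2 had 291 and 290 FPKM, the axon growth regulator Skil (SnoN) 180 and 108, Neurod2 25.2 and 11.9, Fmr1 18.6 and 22.0 and Id1 2.45 and 16.8.

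SCF substrates were 10 higher and 12 lower of 22 at P5 (median -0.03). Those of Skp2 included Cdkn1b (p27), at 78.1 and 40.1 FPKM with a log2 ratio of -0.96, and Cdkn1a (p21), at 4.65 and 9.17 with a ratio of 0.98. Cdkn1c (p57) had 67.3 and 20.8 (p = 0.072 in the authors' deposited table) and Ccnd1 had 54.5 and 32.5. Those of Btrc included beta-catenin (Ctnnb1), at 203 and 121 FPKM, and Nfkbia, at 8.57 and 23.9. None of the 22 was called. RNA of Skp2, Cks1b and Cdkn1b was lower at P5 in the pooled values and that of Cdkn1a higher, each with an interval that holds 0. A link among these genes was not tested.

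**Figure D5:**
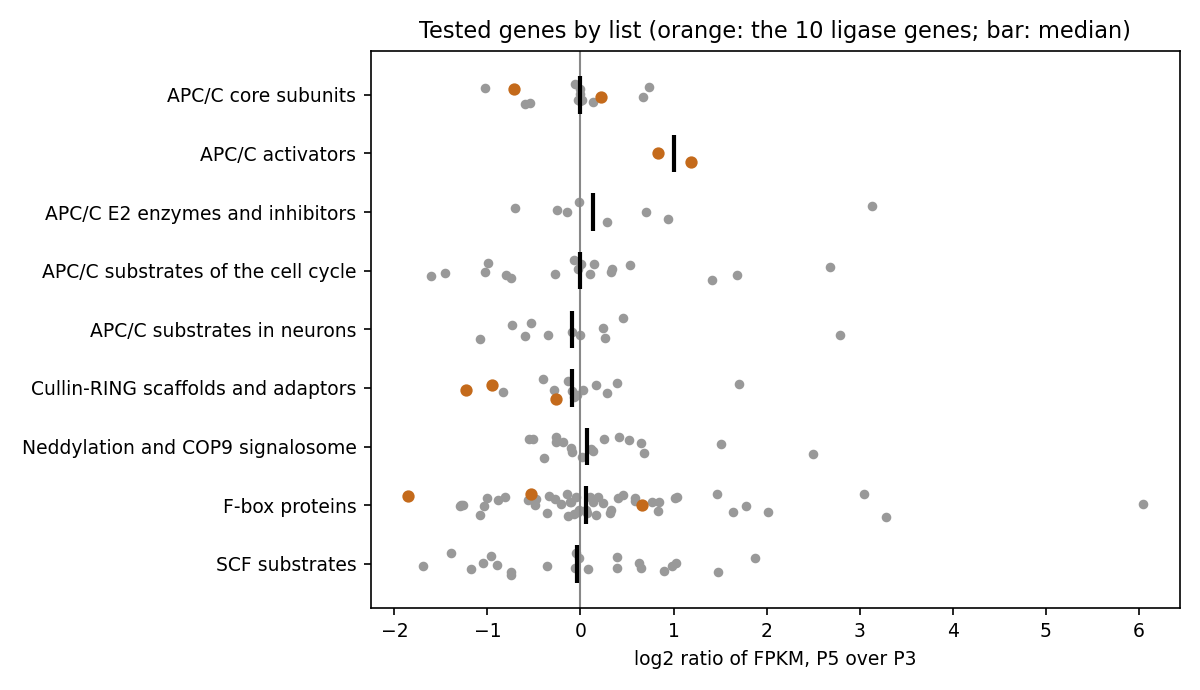
Log2 ratio of FPKM, P5 over P3, for each tested gene of the 9 lists (points), with the list median as a bar and the 10 ligase genes in orange. Medians lie between -0.09 and 0.14 in the lists other than the activators, where the 2 tested genes are both members.

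Markers of the labelled cells and of others were read beside these values. All 12 upper-layer neuron markers had signal, with summed levels of 536 FPKM at P3 and 533 at P5, although Cux2 had only 1.87 and 1.99. General neuron markers summed to 866 and 1316 FPKM, of which Stmn2 gave 332 and 758, with 5 of 7 tested higher at P5. The 2 lower included Neurod6, at 237 and 109 FPKM. Dcx, in the sum but without a test, had 73.0 and 51.0. Cycling cell markers, with which Cdc20, Skp2 and Cks1b are usually expressed, had signal in 20 of 20 and summed to 213 and 197 FPKM, with 11 higher and 9 lower. Progenitor markers summed to 442 and 275 FPKM, 8 of 10 tested being lower at P5. Astrocyte markers summed to 1360 and 2405 (10 of 10 higher), oligodendrocyte lineage markers to 124 and 260 (8 of 8 higher), and microglia markers to 15.8 and 134 (9 of 9 higher). Endothelial and mural markers summed to 916 and 950, of which Rgs5 gave 911 and 905, with 7 of 9 higher. Interneuron markers summed to 698 and 822 (5 of 9 higher), of which Sp8 gave 445 and 310 and Npy 155 and 356. Mag, Mog, Itgam and Tek were listed at 0 at P3. The part of any of these cells in the values of the 10 genes was not tested, and in bulk RNA a smaller share of a cell type cannot be told from less RNA per cell.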

How the data were processed

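The 6 samples, 3 at P3 and 3 at P5, were grouped by the age in their titles. Per the submitters' processing notes, TopHat, Cuffdiff 2.02 and build mm9 were used; annotation, read length and strandedness were not stated. The authors deposited 1 table with an FPKM value per age, pooled over replicates, and, per the file headers, a log2 ratio and test statistic (handled as scores), a p-value and a q-value per gene. No counts are held, so depth is unknown.

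The authors' Cuffdiff q at 0.05 was the main test, for rows with status OK. Log2 ratios were recomputed from FPKM without a pseudocount, and SEs were the ratio divided by the statistic. The statistic itself gave the deposited p-value as a two-sided normal tail to within 2.8e-06, which does not check the SEs. Differences of ratios took SEs as independent. The script was tested on simulated data. Of 76 ribosomal protein rows, 8 were listed at 0 at both ages, so a gene at 0 is only described as listed so. Loci are mm9, counted from 1.

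Members and the 18 lists were chosen with earlier results of these data known. Named by rule were the 10 members, all genes of the APC/C subunit, activator and regulator lists, and from each other pathway list the 4 highest in mean FPKM and the 2 with the lowest p at 5 FPKM or more, plus Fbxw11, Cks2, Cdkn1a and Cdkn1b, and the 3 nearest genes to Fzr1, Cdc20 and Skp2; the remaining genes were picked with their values in view. Listed genes without a row of their own name were matched by older symbols, 3 of them; Cdc20b found no row. Promoters came from RefSeq (GRCm38.p6) by symbol, with Skp1 for Skp1a, and 9 of the 10 genes matched (not Btrc). Python 3.11.15, pandas, scipy and matplotlib were used. Alternatives were q at 0.01, other adjustments, filters, pseudocounts of 1 and 0.1 FPKM, centring, means, and lists without the members.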

Additional observations from a re-analysis of the deposited data

How the results depend on the processing

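No paired analysis was possible because the deposited table holds 1 pooled value per age and none per replicate, and for the same reason no replicate could be left out in turn. The count of members called stayed at 0 at q = 0.01, with Benjamini-Hochberg adjustment over rows of at least 1 FPKM at either age, with Bonferroni adjustment and with all rows whatever their status. Each of the 10 ratios kept its sign with pseudocounts of 1 and 0.1 FPKM and after centring. With a pseudocount of 1 FPKM the log2 ratio of Cdc20 was 0.59 in place of 1.19, and the difference of Fzr1 minus Cdc20 was 0.18 in place of -0.36. The F-box list had a mean of 0.27 beside its median of 0.06. This shift was larger than the median SE divided by the square root of the number of genes. The ratios in that mean ran from -1.86 for Skp2 to 6.04 for Fbxl15. The latter had an SE of 20.6, at 0.123 FPKM at P3 and 8.09 at P5. The part of each gene in the shift was not tested. Means of the cell cycle and the neuronal APC/C substrates were 0.01 and 0.03, of opposite sign to their medians of -0.01 and -0.09, and the former median was 0.01 with rows of any status. In all, 113 of 114 alternatives were scored as unmoved. Unmoved meant the same sign for the ratios of the 10 genes. For other values it meant a shift below the error, and for counts one below 1.5 times. Many errors were wide, and a stricter q or Bonferroni adjustment cannot add calls to 0, so this tally says little about robustness. The SEs, not less than 0.86 for any of the 10 genes, limit what this table can show.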

Other observations

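Enzymes upstream of the ligases were also read, as families chosen by symbol after the values above were seen. Of 31 tested Ube2 genes, which encode E2 enzymes and relatives, 16 were higher and 15 lower at P5, with a median log2 ratio of 0.00, and 0 were called. Ube2w had 44.3 and 48.2 FPKM and Ube2b 43.5 and 50.8. Ube2a, a close paralog of Ube2b, had 13.9 and 46.7 FPKM (log2 ratio 1.74, SE 1.09, p = 0.110 in the authors' deposited table), the lowest p of the family. Ube2r2, an E2 that serves the SCF, had 24.4 and 13.7 FPKM, and its relative Cdc34 had 2.56 and 2.49. The ubiquitin-activating enzyme gene Uba1 had 72.0 and 64.3, and Uba6 had 8.99 and 3.31 (log2 ratio -1.44, SE 1.04).

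Tested genes with expression at both ages and a RefSeq promoter were split by motif. Of them, 398 held both a CCAAT box and TTTGAA in the 250 bases upstream of a start site. Their median log2 ratio was 0.03, with 48.0% lower at P5, against 0.12 and 44.7% in 8355 genes without both. Cdc20 and Cks1b, which hold both, had ratios of 1.19 (SE 4.90) and -1.23 (SE 1.30). Skp2, with -1.86 (SE 1.16), holds both only at its second listed start site. That site lies 43444 bases from the gene's far end, against 28466 bases in the deposited locus. A link between motifs and ratios was not tested.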
